A study of Homo sapiens with 10 samples.

Results

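The genes described here are 53 listed members of the TGFβ, activin and BMP signalling pathways. Their rows were taken by gene symbol from the count tables of human thyroid organoids, out of 28265 genes in all. All 53 passed the low-count filter and stood among the 21014 genes tested. The TGFβ and activin arm holds 27 of them, namely ligands, latent TGFβ binding proteins, receptors, *SMAD2* and *SMAD3*, ligand antagonists and target genes. The BMP arm holds 15, namely ligands, receptors, *SMAD1*, *SMAD5*, *SMAD9* and the *ID* genes. A further 4 act against BMP signalling (*GREM1*, *NOG*, *CHRD* and *SMAD6*) and 7 act on both arms.

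The libraries are bulk RNA-seq of cells sorted for NKX2-1GFP from thyroid organoids on days 16, 23, 31, 38 and 45, with 2 libraries a day and 10 in all. The cells are 1 human ESC line, ESIBIe003-A-6, in which GFP stands at one *NKX2-1* allele and doxycycline switches on *NKX2-1* and *PAX8* transgenes. Every library comes from pooled wells of cultures grown in serum that received Activin A, a ligand of the arm studied here, to induce endoderm, and then doxycycline. Libraries held 7247268 to 10333933 counted reads, and levels are given as CPM, the count relative to the TMM-scaled library total.

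The day 16 libraries carry a cAMP label, although by the study's methods these cells were in basal medium until then. Those of day 23 and day 31 are labelled cAMP and had 8-br-cAMP, a cell-permeable cAMP analogue. For day 31 the study's schedule puts the change to the next medium just before the harvest. The day 38 cells had recombinant human TSH and dexamethasone, a glucocorticoid, in place of cAMP. The day 45 cells had SB431542 as well, and their label names TSH and SB431542 but leaves out dexamethasone. The study's text gives 2 starting days for SB431542, the day before the day 38 harvest and that day itself. The day 38 cells were taken as grown without SB431542 from their label alone, and a short exposure before that harvest cannot be told apart from none here. Day and medium change together at each of the last 2 steps. The study's later cAMP-only controls are not analysed here. In bulk samples, fewer cells of a type and less RNA per cell cannot be told apart.

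TGFβs, activins and NODAL bind type II receptors, which activate the type I receptors TGFBR1, ACVR1B and ACVR1C, and these phosphorylate SMAD2 and SMAD3. BMPs act through BMPR2 and activin type II receptors on ACVR1, BMPR1A and BMPR1B, which phosphorylate SMAD1, SMAD5 and SMAD9. Both groups of SMADs enter the nucleus with SMAD4. SB431542 blocks the kinases TGFBR1, ACVR1B and ACVR1C and leaves the BMP type I receptors largely free. In the thyroid, TGFβ is known for restraining growth and function of follicular cells, and BMPs take part in specifying the gland from foregut endoderm.

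Of the 53 members, 47 matched RefSeq promoters of GRCh38.p14 by symbol, with 89 promoters between them, and the 250 bases before each start site were searched on both strands. *SKI*, *LEFTY1*, *LEFTY2*, *NOG*, *BMP7* and *BMP2* were not matched. The strings searched were GTCTAGAC, the palindromic SMAD box, GGCGCC, a GC-rich string bound by BMP SMADs, TGACGTCA, the cAMP response element, and GTCTGGAC, CAGACAG and GGCGGAGC. None of the strings contains another, but GTCTGGAC read on its other strand ends in letters that begin CAGACAG. The palindromic SMAD box stood in 0.182% of all 35116 promoters and, among the members, only in that of *SMAD6*. The cAMP response element stood in 1.65% of promoters and in those of *LTBP1*, *SKIL* and *FN1*. GGCGCC stood in 16.4% of promoters and in 21 of the members' 89. GTCTGGAC stood in 0.624% of promoters (members *NODAL* and *SMAD3*), CAGACAG in 4.79% (4 members) and GGCGGAGC in 6.11% (3 members). A match describes the letters only. The 3 promoters printed are those of *SMAD6* and *BAMBI*, inhibitors of the pathway that were called lower at both of the last 2 steps, and of *FN1*, a TGFβ target called at 3 of the 4 steps. Capitals mark the string named.
*SMAD6*, chr15:66701986-66702235, plus strand, GTCTAGAC at position −12 from the start site: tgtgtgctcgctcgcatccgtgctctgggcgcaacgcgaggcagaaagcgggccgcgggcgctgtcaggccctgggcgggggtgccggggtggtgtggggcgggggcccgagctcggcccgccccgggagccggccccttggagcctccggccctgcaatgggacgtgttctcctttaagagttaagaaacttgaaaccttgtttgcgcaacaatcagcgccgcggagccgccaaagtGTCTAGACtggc
*BAMBI*, chr10:28677271-28677520, plus strand, GGCGCC 3 times, first at position −209: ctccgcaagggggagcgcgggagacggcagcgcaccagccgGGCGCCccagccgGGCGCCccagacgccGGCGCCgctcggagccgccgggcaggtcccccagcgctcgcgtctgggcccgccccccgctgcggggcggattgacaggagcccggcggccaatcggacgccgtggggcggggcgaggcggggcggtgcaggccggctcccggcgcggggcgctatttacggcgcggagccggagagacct
*FN1*, chr2:215436069-215436318, minus strand, TGACGTCA at position −183: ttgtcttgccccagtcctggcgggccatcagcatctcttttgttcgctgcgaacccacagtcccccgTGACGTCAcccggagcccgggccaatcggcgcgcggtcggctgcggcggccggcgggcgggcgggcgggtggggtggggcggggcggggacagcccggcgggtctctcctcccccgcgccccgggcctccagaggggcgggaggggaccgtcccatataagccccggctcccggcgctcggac

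Before the results by gene, the libraries were compared with each other. Between libraries of one day Pearson's r over all genes (log2 CPM) was 0.940 to 0.970, and between a library of days 16 to 31 and one of days 38 or 45 it was 0.853 to 0.920. Between different days among 16, 23 and 31 it was 0.891 to 0.942 and between days 38 and 45 it was 0.915 to 0.927, so these ranges overlapped. The genes *HOXA3*, *HOXA4* and *HOTAIRM1*, which lie side by side and were chosen after their values were seen, separated these 2 sets of days. *HOXA3* had 304 and 413 counts on day 16, 404 and 435 on day 31, 1 and 4 on day 38 and 0 and 0 on day 45. *HOXA4* had 207 and 132 counts on day 31 and 0 in all libraries of days 38 and 45. *RN7SK*, an abundant small nuclear RNA, took 2.92% and 3.86% of the reads on day 31 and 8.17% and 6.76% on day 38, without overlap, against 6.82% and 7.11% on day 16. In the 3 genes of the HOXA region the day 38 and 45 libraries stood apart from the earlier ones, and the part of either measure in the comparison of day 38 with day 31 was not tested.

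Most of the pathway was expressed, and most of it changed. The median of the members' mean levels was 73.8 CPM, against 11.2 CPM over all genes tested, and 43 of the 53 reached a daily mean of at least 20 CPM. Each change was tested by the quasi-likelihood method of edgeR, fitted to the 10 libraries together, with Benjamini-Hochberg adjustment over all genes tested, and a gene is said to be called where its adjusted p was under 0.05. Over any day, 39 of the 53 members were called (73.6%), where 36.3% of all genes were. In single steps, 34 were called at least once (background 27.4%) and 19 in none, and *BMP4* was the one called in all 4.

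The step from day 31 to day 38 had the most calls. From day 16 to day 23, 15 members were called, where 10.9% of all genes were. Of these, 8 were higher (background 5.60%) and 7 lower (background 5.33%). From day 23 to day 31, 5 were called (background 2.25%), 3 higher (background 1.58%) and 2 lower (background 0.666%). From day 31 to day 38, 26 were called (background 15.0%), 10 higher (background 8.80%) and 16 lower (background 6.23%). From day 38 to day 45, 18 were called (background 11.2%), 3 higher (background 4.85%) and 15 lower (background 6.35%). The 3 called higher at this last step were *INHBA*, *BMP2* and *SKI*, a share close to the background. Against day 16, 29 members were called at day 45 (background 24.6%), 7 higher (background 12.9%) and 22 lower (background 11.7%). The members are more abundant than most genes, and the part of this in the shares called was not tested.

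**Figure D1:**
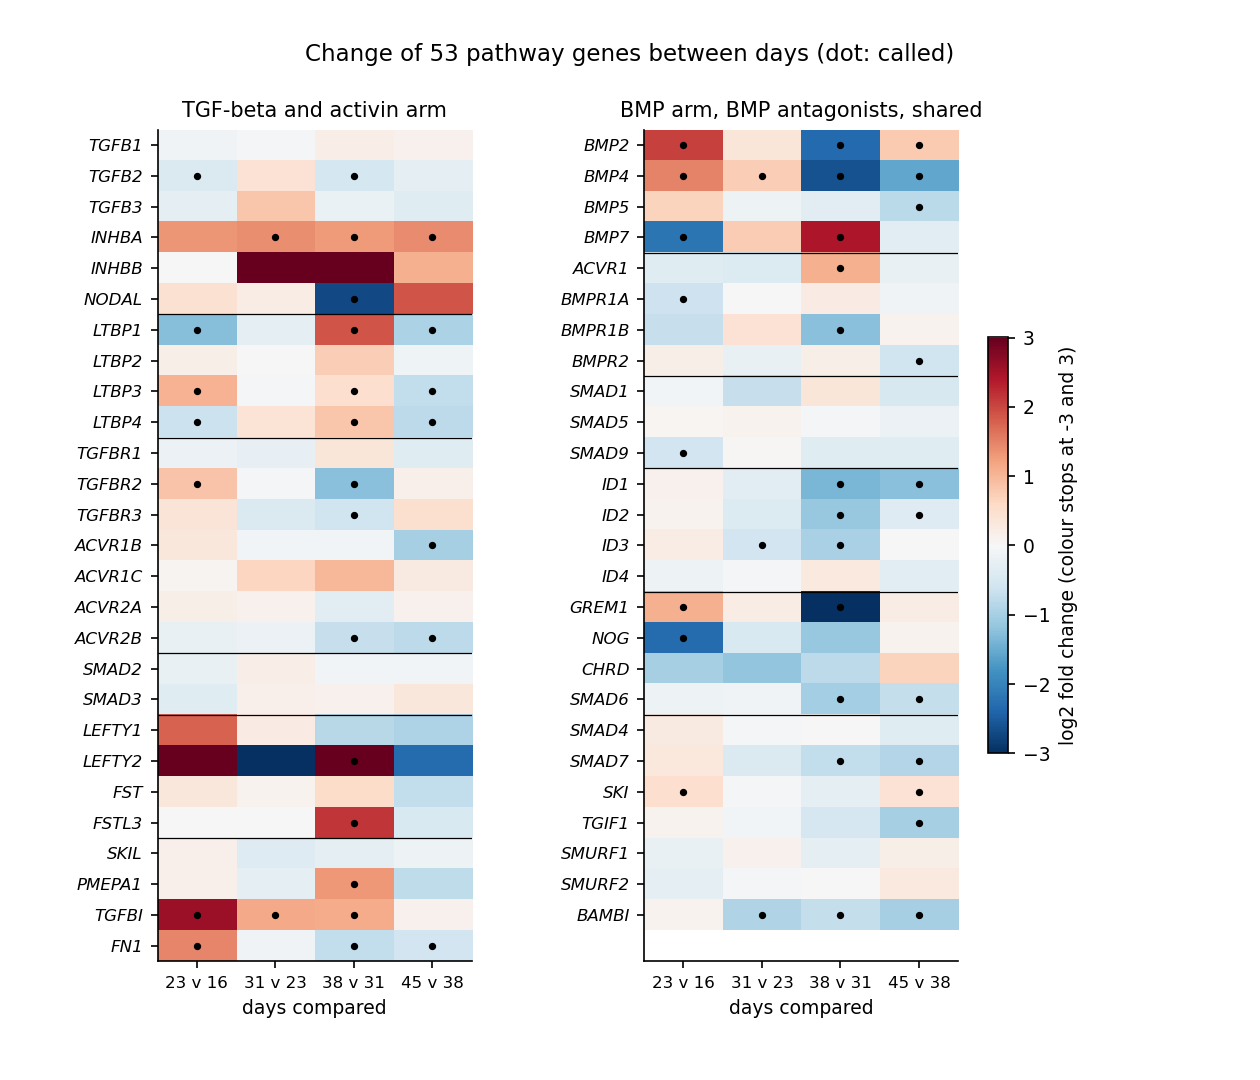
Colour gives the log2 fold change of each of the 53 members in each of 4 comparisons of consecutive days (x axis), with genes as rows, lines between roles, and a dot where edgeR's adjusted p was under 0.05. The column of day 38 against day 31 holds 26 dots, and that of day 45 against day 38 holds 18, of which 15 are on blue. Fitted values of *INHBB* and *LEFTY2* rest on libraries at 0 counts and are set by the fit's prior count.

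The arms were compared by their counts and medians. From day 31 to day 38, 14 of the 27 genes of the TGFβ and activin arm were called, 8 higher and 6 lower, with a median log2 fold change of 0.19. In the BMP arm 8 of 15 were called, 2 higher and 6 lower, with a median of −0.34, and the median of all genes tested was 0. Over all genes 8.80% were called higher and 6.23% lower at this step. From day 38 to day 45 the medians of both arms were below 0, at −0.29 and −0.34 against −0.02 for all genes. In the TGFβ and activin arm 7 genes were called, 1 higher and 6 lower, and in the BMP arm 6, 1 higher and 5 lower. Over all genes 4.85% were called higher and 6.35% lower, so the 1 higher call in each arm was near the background. From day 16 to day 45 the medians were 0.08 and −0.65, with 5 higher and 6 lower in the first and 1 higher and 9 lower in the second. Over all genes 12.9% were called higher and 11.7% lower in that comparison. At the 2 earlier steps the medians were 0.15 and 0.06 from day 16 to 23 (all genes −0.02) and 0.02 and −0.05 from day 23 to 31 (all genes 0.00). The difference between the arms was not tested. Without TMM factors the median of all genes from day 31 to 38 was −0.2, and the calls were 1182 higher and 2368 lower over all genes in place of 1850 and 1310, and 8 higher and 21 lower among the members in place of 10 and 16. In the TGFβ and activin arm that setting gave 6 higher and 8 lower, and in the BMP arm 2 higher and 7 lower. Leaving out single libraries from day 31 to 38 cut the calls of the TGFβ and activin arm to 8 of 27 without day 31 replicate 1 or either day 38 library, with 4 or 5 higher and 3 or 4 lower. From day 38 to 45 that arm had 4 calls, 3 of them lower, without day 38 replicate 2, and from day 16 to 45 it had 7, 3 of them lower, without day 45 replicate 1. Over the alternatives other than the fold threshold, the genes called lower from day 38 to 45 numbered 3 to 7 in each arm, and the median of the TGFβ and activin arm from day 16 to 45 ran from −0.133 to 0.115.

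**Figure D2:**
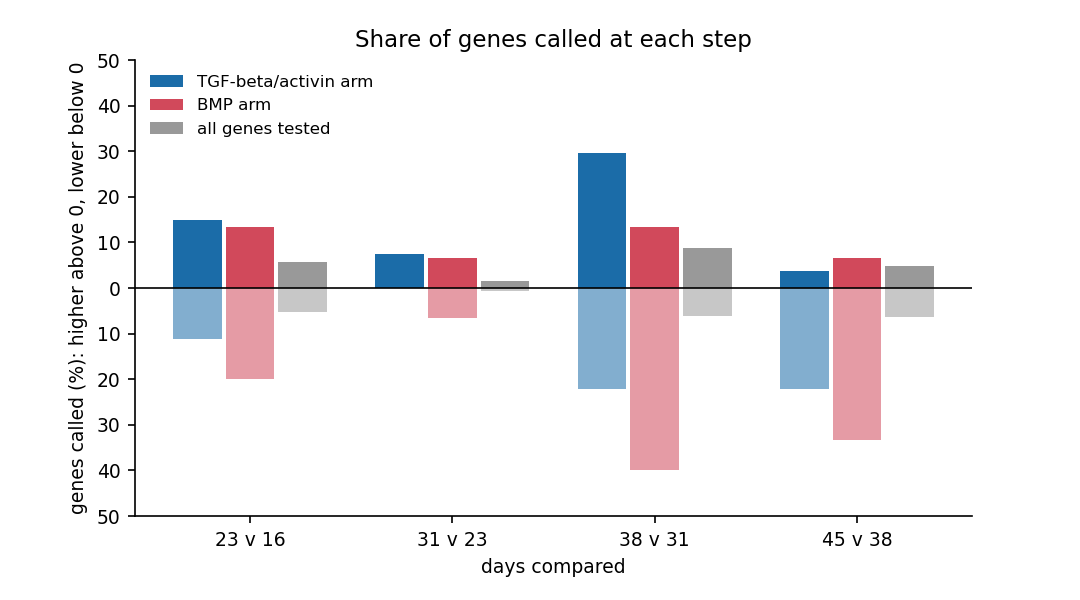
Bars give the percent of genes called higher (above 0) or lower (below 0, paler) at each of 4 steps between days, for the 27 genes of the TGFβ and activin arm, the 15 of the BMP arm and all 21014 genes tested. At day 38 against 31 the TGFβ and activin arm has more calls above 0 (8) than below (6), while the BMP arm has 2 above and 6 below.

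Of the TGFβ and activin ligands, *INHBA* was the one called higher at 3 steps. *INHBA*, on chr7:41667168-41705834, encodes the βA subunit that forms activin A. It was at 0.507 and 2.96 CPM on day 16, 4.32 and 4.46 on day 23, 9.72 and 13.3 on day 31, 28.4 and 26.9 on day 38 and 83.8 and 64.8 on day 45. The libraries of neighbouring days did not overlap at any step. It rose by 1.38 on the log2 scale from day 23 to 31 (SE 0.37, edgeR adjusted p = 0.0379), by 1.27 to day 38 (SE 0.34, adjusted p = 0.00802) and by 1.42 to day 45 (SE 0.33, adjusted p = 0.00273). From day 16 to day 45 the log2 fold change was 5.40 (SE 0.43, edgeR adjusted p = 2.62e-12). The call held without any single library, with a log2 fold change of 4.63 without day 16 replicate 1 and 7.15 without day 16 replicate 2. The single steps were less secure. The call of day 45 against 38 was lost without day 45 replicate 1 (1.23, edgeR adjusted p = 0.0699), and that of day 38 against 31 without day 31 replicate 1 (1.05, adjusted p = 0.139) or day 38 replicate 1 (1.23, adjusted p = 0.0501). The call of day 31 against 23 was lost without any 1 of the 4 libraries compared (1.14 to 1.59, edgeR adjusted p = 0.0847 to 0.258), without day 45 replicate 1 (1.38, adjusted p = 0.0586), with filterByExpr, edgeR's own low-count filter (adjusted p = 0.0558), and with only the 4 libraries compared (1.39, adjusted p = 0.145).

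*TGFB2*, on chr1:218345336-218444619, was the TGFβ ligand with the highest level per length of exon on each day, 34.6 CPM per kb at day 16 and 19.8 on day 45, against 9.74 and 11.1 for *TGFB1*. It was at 214 and 205 CPM on day 16, 159 and 152 on day 23, 234 and 185 on day 31, 153 and 138 on day 38 and 129 and 111 on day 45. Every library of days 38 and 45 was below both of day 16. It fell by 0.80 on the log2 scale from day 16 to 45 (SE 0.14, edgeR adjusted p = 4.61e-05). It also fell by 0.43 from day 16 to 23 (edgeR adjusted p = 0.049) and by 0.52 from day 31 to 38 (adjusted p = 0.00947). The first of these calls was lost with only the 4 libraries compared (edgeR adjusted p = 0.0655), without TMM factors (adjusted p = 0.0813) and without any single library of days 16 to 38 (−0.38 to −0.46, adjusted p = 0.0575 to 0.26). The second was lost without day 31 replicate 1 (−0.35, edgeR adjusted p = 0.232) or day 38 replicate 2 (−0.45, adjusted p = 0.149).

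The other ligands of this arm were called once or not at all among the 5 comparisons. *TGFB1*, at 20.2 to 43.4 CPM over the 10 libraries, and *TGFB3*, at 7.2 to 18.5 CPM, were called in no comparison. *TGFB1* shares exon bases with *HNRNPUL1* on the opposite strand, and its counts are uncertain, since the strand of counting is not stated in the sources used here. *INHBB*, which encodes the βB subunit of activin B, had 0 counts at days 16 and 23 and 4.36 and 2.40 CPM on day 45. The day 45 mean of *INHBB* was at least 8.88-fold above the floor of 3 counts in a day 16 library, or at least 6.32-fold by replicate 2 alone. Its call from day 16 to 45 (edgeR adjusted p = 0.0216) was lost without either day 16 library (adjusted p = 0.117) and without day 45 replicate 1 (adjusted p = 0.0936). *NODAL*, known from early embryonic patterning, was at 0.932 to 6.40 CPM. It fell by 2.71 from day 31 to 38 (SE 0.78, edgeR adjusted p = 0.0142), a call lost without either day 38 library (−2.74 and −2.68, adjusted p = 0.129 and 0.134).

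Latent TGFβ binding proteins hold secreted TGFβ in the matrix. *LTBP1*, *LTBP3* and *LTBP4* rose from day 31 to 38 and fell from day 38 to 45, and they were the 3 members with that order of calls. *LTBP1*, on chr2:32946953-33399509, was at 76.5 and 63.3 CPM on day 16, 25.5 and 32.4 on day 23, 24.9 and 22.3 on day 31, 81.0 and 94.2 on day 38 and 44.9 and 46.4 on day 45. *LTBP3*, on chr11:65538559-65558930, was at 40.1 and 43.5, 92.9 and 79.9, 90.2 and 78.4, 121 and 118, and 80.0 and 63.9 CPM on the same days. *LTBP4*, on chr19:40592883-40629818, was at 65.2 and 55.5, 41.6 and 36.1, 52.1 and 51.8, 89.8 and 94.0, and 55 and 51 CPM. In all 3 genes both day 38 libraries were above every other library. At day 23 *LTBP1* and *LTBP4* were low and *LTBP3* was high against day 16.

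*LTBP1* fell by 1.27 on the log2 scale to day 23 (SE 0.21, edgeR adjusted p = 4.79e-05), rose by 1.89 to day 38 (SE 0.21, adjusted p = 2.48e-08) and fell by 0.94 to day 45 (SE 0.21, adjusted p = 0.00161). *LTBP3* rose by 1.05 to day 23 (SE 0.18, edgeR adjusted p = 6.08e-05) and by 0.50 to day 38 (SE 0.17, adjusted p = 0.0408), and fell by 0.74 to day 45 (SE 0.17, adjusted p = 0.00315). *LTBP4* fell by 0.64 to day 23 (SE 0.19, edgeR adjusted p = 0.0252), rose by 0.82 to day 38 (SE 0.19, adjusted p = 0.00182) and fell by 0.79 to day 45 (SE 0.19, adjusted p = 0.00369). The falls to day 45 were lost without day 38 replicate 2 for *LTBP1* (−0.83, edgeR adjusted p = 0.0648) and *LTBP4* (−0.76, adjusted p = 0.0661), and without day 45 replicate 2 for *LTBP3* (−0.58, adjusted p = 0.0848). The day 38 rise of *LTBP3* was lost without TMM factors (0.29, edgeR adjusted p = 0.285), with upper-quartile factors (0.45, adjusted p = 0.0719), without any 1 of the 4 libraries compared (0.40 to 0.60, adjusted p = 0.085 to 0.269) and without day 23 replicate 1 (adjusted p = 0.0505). The day 23 fall of *LTBP4* was lost with only the 4 libraries compared (edgeR adjusted p = 0.0686), without day 16 replicate 1 (−0.50, adjusted p = 0.158) and without either day 23 library (−0.74 and −0.54, adjusted p = 0.0615 and 0.219). *LTBP2*, at 3.99 to 11 CPM, was called in no comparison.

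Of the 7 receptors of the TGFβ and activin arm, 3 were called from day 31 to 38 (42.9%, where 6.23% of all genes were called lower) and 2 from day 38 to 45 (28.6%, where 6.35% were), all lower. *TGFBR2*, the type II receptor of TGFβ, on chr3:30606601-30694142, was at 59.2 and 93.8 CPM on day 16, 145 and 133 on day 23, 140.2 and 125 on day 31, 56.9 and 53.6 on day 38 and 63.2 and 60.6 on day 45. It was high at days 23 and 31, with no overlap with the other days. It rose by 0.86 from day 16 to 23 (SE 0.18, edgeR adjusted p = 0.00087) and fell by 1.26 from day 31 to 38 (SE 0.18, adjusted p = 2.02e-06). *ACVR2B*, an activin type II receptor, on chr3:38453890-38493142, was at 382 and 329.8 CPM on day 16, 294 and 315 on day 23, 290.5 and 253 on day 31, 159 and 178 on day 38 and 94.2 and 102 on day 45. Its day 45 libraries were below those of all other days, and its day 38 libraries below those of days 16 to 31. It fell by 0.69 to day 38 (SE 0.13, edgeR adjusted p = 0.000249) and by 0.78 to day 45 (SE 0.14, adjusted p = 8.48e-05), and both calls held under every alternative run except the one that requires a log2 fold change of at least 1. *ACVR2A*, the other activin type II receptor, was at 70.2 to 97.1 CPM and was called in no comparison, though it shares exon bases with *ORC4* on the opposite strand. *TGFBR3* (betaglycan), a coreceptor that presents TGFβ2, was at 61.6 and 74.3, 89.2 and 87.9, 64.6 and 65.6, 44.4 and 41.0, and 60.7 and 59.4 CPM. Its lowest libraries were those of day 38. Its fall from day 31 to 38 (−0.61, SE 0.18, edgeR adjusted p = 0.0186) was lost without any 1 of the 4 libraries compared (−0.55 to −0.67, adjusted p = 0.0701 to 0.196).

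The type I receptors of the TGFβ and activin arm are the targets of SB431542. *TGFBR1*, on chr9:99104038-99154192, was at 163 and 209 CPM on day 16, 176 and 152 on day 23, 139.6 and 136 on day 31, 194 and 162 on day 38 and 139 and 138 on day 45. The libraries of days 31 and 45 were the lowest, and the gene was called in no single step. From day 16 to 45 it fell by 0.43 (SE 0.15, edgeR adjusted p = 0.0305), a call lost with only the 4 libraries compared (adjusted p = 0.0805), without day 16 replicate 2 (−0.24, adjusted p = 0.327) and without either day 45 library (adjusted p = 0.0999 and 0.115). *ACVR1B*, on chr12:51951699-51997078, was at 28.2 and 32.3, 41.5 and 35.6, 36.8 and 36.3, 32.0 and 37.0, and 14.4 and 20.2 CPM, lowest at day 45 without overlap. It fell by 0.99 from day 38 to 45 (SE 0.26, edgeR adjusted p = 0.00874), a call lost without day 38 replicate 2 (−0.88, adjusted p = 0.133) or day 45 replicate 1 (−0.77, adjusted p = 0.138). *ACVR1C*, on chr2:157526767-157628864, was at 1.52 and 0.739, 0.333 and 2.06, 3.58 and 0.116, 3.56 and 3.96, and 6.53 and 2.51 CPM. Its libraries of neighbouring days overlapped at every step, and it was called in no comparison. Per length of exon the order at day 45 was *TGFBR1* (17.3 CPM per kb), *ACVR1B* (3.06) and *ACVR1C* (0.500), and all 10 libraries held the same order in CPM.

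Each of the 4 BMP receptors was called in 1 step, where 27.4% of all genes were called in at least 1 step. *BMPR1A*, a BMP type I receptor, on chr10:86756596-86932825, was at 270.2 and 323 CPM on day 16, 168 and 216 on day 23, 190.3 and 189 on day 31, 219 and 233 on day 38 and 175 and 242 on day 45. Both day 16 libraries were above all others. It fell by 0.63 to day 23 (SE 0.15, edgeR adjusted p = 0.00388), a call lost without day 23 replicate 1 (−0.46, adjusted p = 0.147). *BMPR1B*, on chr4:94757955-95158448, was at 17.2 and 19.9, 13.6 and 9.37, 16.0 and 14.9, 4.64 and 8.27, and 7.84 and 6.01 CPM. Its 4 libraries of days 38 and 45 were below the 6 earlier ones. It fell by 1.26 to day 38 (SE 0.42, edgeR adjusted p = 0.0378), a call lost without any 1 of the 4 libraries compared (−0.90 to −1.73, adjusted p = 0.0522 to 0.413). *ACVR1*, on chr2:157736251-157876330, was at 32.1 and 43.7, 26.8 and 31.8, 21.4 and 22.5, 49.3 and 41.9, and 35.1 and 42.4 CPM. It was lowest at day 31 and rose by 1.06 to day 38 (SE 0.25, edgeR adjusted p = 0.00237), a call lost without day 38 replicate 1 (0.93, adjusted p = 0.0613). Per length of exon the order at day 45 was *BMPR1A* (20.7 CPM per kb), *ACVR1* (3.94) and *BMPR1B* (1.06).

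*BMPR2*, the BMP type II receptor, on chr2:202376327-202567751, was at 389 and 449 CPM on day 16, 458 and 484 on day 23, 406 and 396 on day 31, 426 and 479.8 on day 38 and 276 and 325 on day 45. The day 45 libraries were the lowest. It fell by 0.59 from day 38 to 45 (SE 0.12, edgeR adjusted p = 0.000994), and the call held under the alternatives other than that fold threshold. Its fall of 0.48 from day 16 to 45 (edgeR adjusted p = 0.0036) was lost without day 45 replicate 1 (−0.37, adjusted p = 0.0805). *TGFBR1* was called lower from day 16 to 45 as well, as given above. The remaining receptor calls of that comparison were those of *ACVR2B* (−1.86, edgeR adjusted p = 5.25e-13), *BMPR1B* (−1.43, adjusted p = 0.0106), *ACVR1B* (−0.80, adjusted p = 0.0212) and *BMPR1A* (−0.51, adjusted p = 0.0104). All but that of *ACVR2B* were lost without single libraries. They were day 16 replicate 2 and day 45 replicate 1 for *BMPR1A* (−0.37 and −0.29, edgeR adjusted p = 0.099 and 0.259) and for *ACVR1B* (−0.70 and −0.58, adjusted p = 0.102 and 0.207, and 0.0742 with only the 4 libraries compared), and day 16 replicate 2 and day 45 replicate 2 for *BMPR1B* (−1.32 and −1.25, adjusted p = 0.0569 and 0.0914).

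The 4 BMP ligands did not move in 1 direction. *BMP4*, on chr14:53949736-53958761, was at 59.6 and 49.5 CPM on day 16, 161 and 143 on day 23, 265 and 242 on day 31, 39.0 and 43.9 on day 38 and 18.6 and 10.2 on day 45. No 2 days overlapped. It rose by 1.48 on the log2 scale to day 23 (SE 0.18, edgeR adjusted p = 3.21e-07) and by 0.74 to day 31 (SE 0.18, adjusted p = 0.0139), and fell by 2.61 to day 38 (SE 0.19, adjusted p = 7.73e-13) and by 1.55 to day 45 (SE 0.20, adjusted p = 9.52e-07). The rise to day 31 was lost without any 1 of the 4 libraries compared (0.66 to 0.83, edgeR adjusted p = 0.0672 to 0.25), and the fall to day 45 lay between 1.16 and 2.03 on the log2 scale with single libraries left out. *BMP2*, on chr20:6767686-6780246, was at 30.9 and 28.8, 129 and 118, 169.9 and 147, 31.8 and 31.6, and 59.1 and 49.7 CPM. It was high at days 23 and 31, and both day 45 libraries were above both of day 38. It rose by 2.05 to day 23 (SE 0.18, edgeR adjusted p = 1.79e-10), fell by 2.32 to day 38 (SE 0.18, adjusted p = 3.29e-12) and rose by 0.78 to day 45 (SE 0.18, adjusted p = 0.00233). *BMP2* was the one member called lower at day 38 and higher at day 45.

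*BMP7* went the other way from *BMP2* and *BMP4*. On chr20:57168753-57266641, it was at 23.1 and 25.1 CPM on day 16, 5.54 and 5.03 on day 23, 9.31 and 8.61 on day 31, 50.1 and 46.2 on day 38 and 39.2 and 36.8 on day 45. It was low at days 23 and 31, where *BMP2* and *BMP4* were high. It fell by 2.19 to day 23 (SE 0.30, edgeR adjusted p = 2.15e-06) and rose by 2.42 to day 38 (SE 0.29, adjusted p = 6.73e-08), and both calls held under every alternative run. *BMP5*, on chr6:55753653-55875590, was at 20.5 and 28.2, 35.4 and 41.8, 38.3 and 31.2, 27 and 27.8, and 13.9 and 17.1 CPM, lowest at day 45. It fell by 0.81 from day 38 to 45 (SE 0.27, edgeR adjusted p = 0.0496), a call at the edge of the threshold. That call was lost under DESeq2 (−0.77, adjusted p = 0.0602), without TMM factors (edgeR adjusted p = 0.07), with upper-quartile factors (adjusted p = 0.0735), without any library of days 23, 38 and 45 and without day 31 replicate 1 (−0.68 to −0.98, adjusted p = 0.0519 to 0.261). Per length of exon *BMP4* (81.9 CPM per kb) was above *BMP2* (44.7), *BMP5* (8.75) and *BMP7* (1.65) at day 31. At day 45 *BMP2* (15.3) was above *BMP7* (7.01), *BMP4* (4.64) and *BMP5* (3.91), although *BMP4* and *BMP5* overlapped in CPM.

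**Figure D3:**
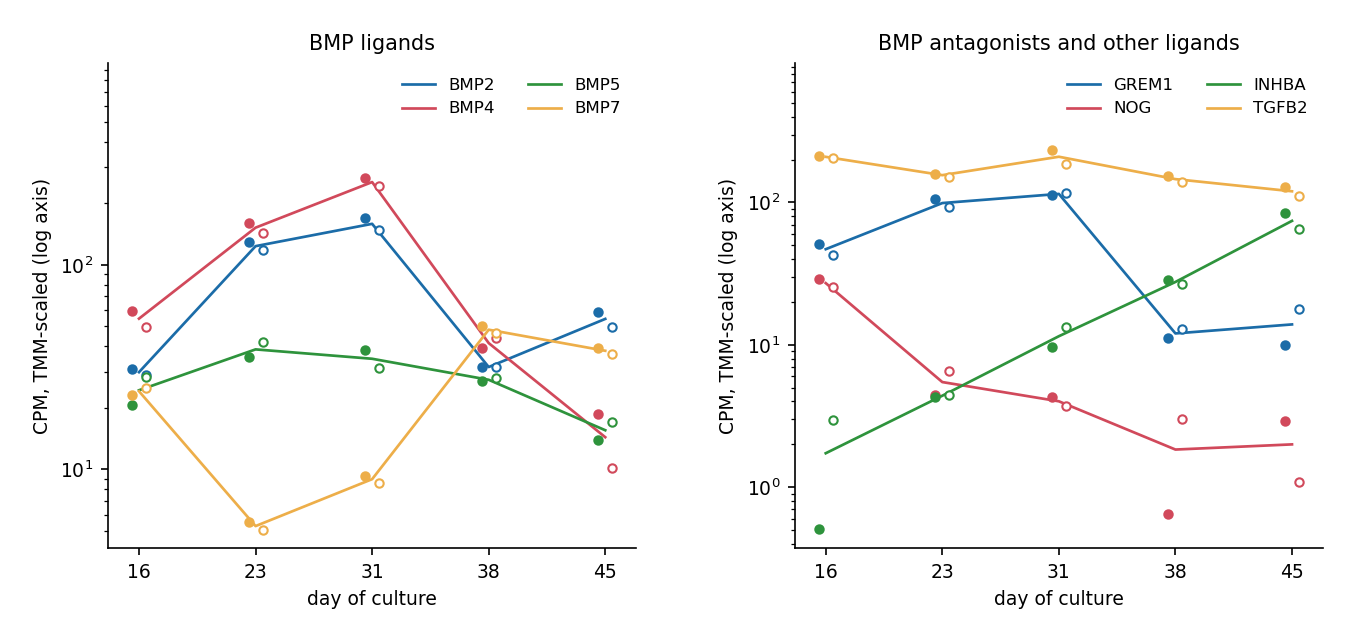
The left panel plots *BMP2*, *BMP4*, *BMP5* and *BMP7* and the right *GREM1*, *NOG*, *INHBA* and *TGFB2*, as CPM on a log axis against the day, with filled points for replicate 1, open points for replicate 2 and lines through the means of 2. *BMP2*, *BMP4* and *GREM1* peak at day 31 and drop at day 38, *BMP7* dips at days 23 and 31, and *INHBA* climbs to 74.3 CPM.

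The secreted BMP antagonists bind BMPs outside the cell. *GREM1* (gremlin), on chr15:32718004-32745106, was at 51 and 43.0 CPM on day 16, 105 and 92.9 on day 23, 114 and 116 on day 31, 11.1 and 12.9 on day 38 and 10.0 and 17.8 on day 45. It was high on the same days as *BMP2* and *BMP4*. It rose by 1.08 to day 23 (SE 0.21, edgeR adjusted p = 0.000495) and fell by 3.26 to day 38 (SE 0.23, adjusted p = 7.29e-13), the largest fall of a member at that step. *NOG* (noggin), on chr17:56593699-56595611, was at 28.8 and 25.5, 4.43 and 6.52, 4.30 and 3.72, 0.648 and 3.03, and 2.90 and 1.09 CPM. It was high at day 16 alone. It fell by 2.31 to day 23 (SE 0.56, edgeR adjusted p = 0.00486), a call lost without day 23 replicate 1 (−2.06, adjusted p = 0.0688), and the log2 fold change from day 16 to 45 was −3.79 (SE 0.62, adjusted p = 1.10e-05), or −4.62 without day 45 replicate 1. *CHRD* (chordin), at 1.19 to 16.7 CPM, was called in no step and fell by 2.28 from day 16 to 45 (edgeR adjusted p = 0.0139). This last call was lost without day 16 replicate 1 (−1.53, adjusted p = 0.274) or either day 45 library (adjusted p = 0.0594 and 0.0698), and *CHRD* shares exon bases with *THPO* on the opposite strand. All 4 BMP antagonists, *SMAD6* included, were called lower at day 45 than at day 16, where 11.7% of all genes were.

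Of the 4 antagonists of activin and NODAL, *FSTL3* and *LEFTY2* were called from day 31 to 38, both higher, where 8.80% of all genes were. *FSTL3*, which binds activin, on chr19:676392-683392, was at 6.09 and 6.40 CPM on day 16, 6.21 and 6.29 on day 23, 7.27 and 5.35 on day 31, 32.2 and 23.6 on day 38 and 18.9 and 21.6 on day 45. The 4 late libraries were above the 6 early ones. It rose by 2.14 to day 38 (SE 0.39, edgeR adjusted p = 0.000103). *FST* (follistatin), at 5.91 to 20.7 CPM, was called in no comparison. *LEFTY1* and *LEFTY2*, inhibitors of NODAL, were at or under 3 counts in 6 and 5 of the 10 libraries. *LEFTY2* was at 5.32 and 0.915 CPM on day 23 and had 0 counts on day 31. It was at 2.48 and 6.05 CPM on day 38 and at 0 and 1.64 CPM on day 45. The day 38 mean was at least 12.2-fold above the floor of 3 counts in a day 31 library, or at least 7.12-fold by replicate 1 alone. The rise from day 31 to 38 was called (edgeR adjusted p = 0.00793). That call was lost without either day 31 library (adjusted p = 0.0751 and 0.0623) or without day 38 replicate 2 (adjusted p = 0.0794).

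Of the 5 receptor-regulated SMADs, *SMAD9* was the one called in a single step, where 27.4% of all genes were called in at least 1 step. *SMAD2*, at 312 to 383 CPM, and *SMAD5*, at 164 to 218 CPM, were called in no comparison. *SMAD3*, at 119 to 197 CPM, was called in no step or in day 45 against 16, though over any day it was (edgeR adjusted p = 0.00692). *SMAD4*, the partner of both arms, at 223 to 345 CPM, was likewise called over any day alone (edgeR adjusted p = 0.0368). *SMAD9*, on chr13:36844831-36920887, was at 300.3 and 299.9 CPM on day 16, 201 and 203 on day 23, 201 and 212 on day 31, 160.4 and 158 on day 38 and 136 and 112 on day 45. Its level was highest at day 16 and lowest at day 45, without overlap. It fell by 0.57 to day 23 (SE 0.13, edgeR adjusted p = 0.00318). From day 16 to 45 it fell by 1.28 (SE 0.14, edgeR adjusted p = 3.11e-09). The log2 fold change of *SMAD9* from day 38 to 45 was −0.36 and was not called (edgeR adjusted p = 0.085). *SMAD1*, at 16.2 to 38.1 CPM, fell by 0.89 from day 16 to 45 (edgeR adjusted p = 0.0176), a call lost without day 16 replicate 2 (−0.72, adjusted p = 0.13) or day 45 replicate 1 (−0.75, adjusted p = 0.131). Per length of exon *SMAD9* (20.8 CPM per kb), *SMAD5* (18.8) and *SMAD3* (18.5) had close levels at day 45, above *SMAD2* (9.11) and *SMAD1* (2.59).

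The *ID* genes encode inhibitors of basic helix-loop-helix factors and are classic targets of BMP signalling. From day 31 to 38 *ID1*, *ID2* and *ID3* were called lower, where 6.23% of all genes were, and *ID4* was not called. *ID1*, on chr20:31605283-31606515, was at 837 and 882 CPM on day 16, 1001 and 883 on day 23, 675 and 816 on day 31, 315 and 264 on day 38 and 126 and 118 on day 45. The libraries of day 38 lay below all earlier ones and those of day 45 below all others. It fell by 1.36 to day 38 (SE 0.12, edgeR adjusted p = 1.91e-10) and by 1.25 to day 45 (SE 0.13, adjusted p = 4.97e-09), and both calls held under every alternative run. *ID2*, on chr2:8678845-8684461, was at 722 and 815, 834 and 831, 563 and 693, 302 and 267, and 208 and 223 CPM. It fell by 1.14 to day 38 (SE 0.12, edgeR adjusted p = 9.08e-09) and by 0.40 to day 45 (SE 0.12, adjusted p = 0.03). The last call was lost without TMM factors (−0.34, edgeR adjusted p = 0.0616), with upper-quartile factors (−0.34, adjusted p = 0.0687), without day 38 replicate 1 (−0.31, adjusted p = 0.306) and without either day 45 library (−0.35 and −0.45, adjusted p = 0.177 and 0.0617). *ID2-AS1* overlaps *ID2* on the opposite strand.

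*ID3*, on chr1:23557926-23559501, was at 247 and 274 CPM on day 16, 304 and 303 on day 23, 218 and 187 on day 31, 115 and 91.8 on day 38 and 107 and 102 on day 45. The last 2 days overlapped, and both lay below the rest. It fell by 0.97 to day 38 (SE 0.14, edgeR adjusted p = 3.39e-06), with a log2 fold change of 0.01 from there to day 45 (SE 0.14, adjusted p = 0.982). Its fall of 0.58 from day 23 to 31 (edgeR adjusted p = 0.0143) was lost without either day 23 library (adjusted p = 0.114 and 0.118) or day 31 replicate 2 (−0.49, adjusted p = 0.202). *ID4*, on chr6:19837370-19842197, was at 742 and 1006, 796 and 773, 786 and 725, 905 and 944, and 685 and 782 CPM. The days overlapped but for day 38 against days 23, 31 and 45, and no comparison was called (any day, edgeR adjusted p = 0.106). Per length of exon *ID1* (697 CPM per kb) led at day 16, ahead of *ID2* (347), *ID4* (226) and *ID3* (174). At day 45 *ID4* (189) led, ahead of *ID1* (99.0), *ID2* (97.5) and *ID3* (69.9).

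**Figure D4:**
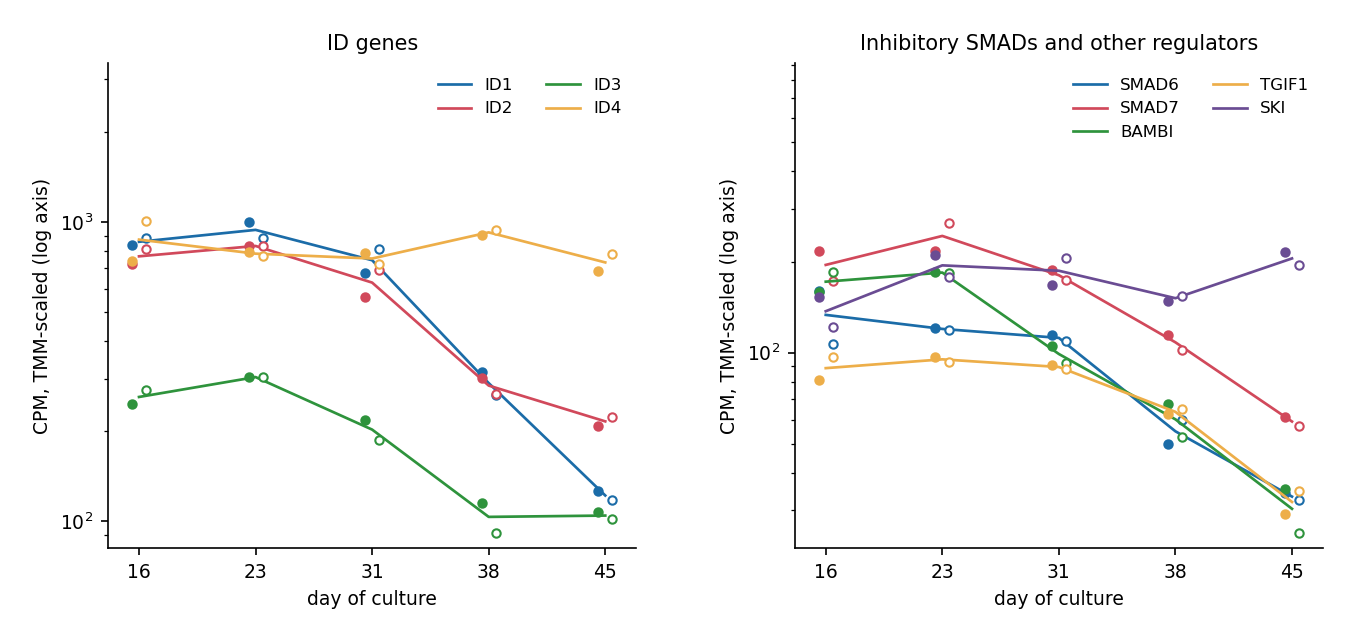
The left panel plots the 4 *ID* genes and the right *SMAD6*, *SMAD7*, *BAMBI*, *TGIF1* and *SKI*, as CPM on a log axis against the day, with filled points for replicate 1, open points for replicate 2 and lines through the means of 2. *ID1* drops to 122 CPM on day 45 while *ID4* stays at 733, and in the right panel *SKI* is the one gene whose day 45 mean, 205 CPM, lies above that of day 38.

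The inhibitors *SMAD6*, *SMAD7* and *BAMBI* were called lower at both of the last 2 steps, as *ID1* was. Inhibitors of the pathway did not all fall. *PMEPA1*, described below, was called higher from day 31 to 38, and *SMURF1* and *SMURF2* were called in no comparison. SMAD6 mainly holds back BMP signalling and SMAD7 both arms, and BAMBI is a pseudoreceptor that lacks a kinase. *SMAD6*, on chr15:66702236-66782849, was at 160.3 and 107 CPM on day 16, 121 and 119 on day 23, 114 and 109 on day 31, 49.9 and 59.8 on day 38 and 34.3 and 32.4 on day 45. *SMAD7*, on chr18:48919853-48950965, was at 217 and 173, 217 and 269.9, 187 and 174, 114 and 102, and 61.3 and 57.0 CPM. *BAMBI*, on chr10:28677510-28682932, was at 159 and 185, 185 and 184, 105 and 92.7, 67.8 and 52.4, and 35.4 and 25.3 CPM. In each of the 3 genes both day 38 libraries lay below all earlier ones and both day 45 libraries below those of day 38.

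*SMAD6* fell by 1.03 to day 38 (SE 0.18, edgeR adjusted p = 5.06e-05) and by 0.72 to day 45 (SE 0.18, adjusted p = 0.00713). *SMAD7* fell by 0.74 (SE 0.15, edgeR adjusted p = 0.000412) and 0.87 (SE 0.15, adjusted p = 9.17e-05). *BAMBI* fell by 0.90 already from day 23 to 31 (SE 0.17, edgeR adjusted p = 0.000974), then by 0.72 (SE 0.17, adjusted p = 0.00242) and 0.99 (SE 0.18, adjusted p = 0.000123). The day 45 call of *SMAD6* was lost without day 38 replicate 2 (−0.58, edgeR adjusted p = 0.142) or day 45 replicate 2 (−0.68, adjusted p = 0.0627). The day 38 call of *BAMBI* was lost without day 31 replicate 1 (−0.64, edgeR adjusted p = 0.0515) or day 38 replicate 2 (−0.55, adjusted p = 0.108). In all, 8 members were called lower at both of the last 2 steps (background 0.709%), namely *ID1*, *ID2*, *BMP4*, *SMAD6*, *SMAD7*, *BAMBI*, *ACVR2B* and *FN1*. The 2 steps share the day 38 libraries.

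Of the corepressors, *TGIF1* fell and *SKI* rose. *TGIF1*, on chr18:3411608-3459978, was at 81.3 and 96.4 CPM on day 16, 96.9 and 93.2 on day 23, 90.7 and 88.6 on day 31, 62.4 and 64.9 on day 38 and 29.2 and 34.8 on day 45. It fell by 0.99 from day 38 to 45 (SE 0.18, edgeR adjusted p = 0.000162), and both day 45 libraries lay below all others. *SKI*, on chr1:2227388-2310213, was at 153 and 121, 211 and 178, 168 and 206, 149 and 154, and 215 and 195 CPM. It rose by 0.50 to day 23 (SE 0.15, edgeR adjusted p = 0.0203) and by 0.44 from day 38 to 45 (SE 0.15, adjusted p = 0.0484). The first call was lost without day 16 replicate 2 (0.35, edgeR adjusted p = 0.193) or day 23 replicate 1 (0.38, adjusted p = 0.256). The second was lost without any single library of days 23 to 45 (0.37 to 0.51, edgeR adjusted p = 0.0585 to 0.252). Its rise from day 16 to 45 (0.58, edgeR adjusted p = 0.0029) was lost without day 16 replicate 2 (0.42, adjusted p = 0.0528). *SMURF1*, at 46.7 to 75.7 CPM, and *SMURF2*, at 101 to 169.7 CPM, encode ubiquitin ligases of the pathway and were called in no comparison. They share exon bases with *TRRAP* and *CEP95* on the opposite strand.

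The targets of TGFβ among the members did not move as 1 group. *FN1* encodes fibronectin, a matrix protein, and lies on chr2:215360440-215436073. It was at 2804 and 2516 CPM on day 16, 7387 and 7221 on day 23, 6534 and 7059 on day 31, 4229 and 3899 on day 38 and 2688 and 2736 on day 45. The libraries of days 23 and 31 were the highest, and those of day 45 fell between the 2 of day 16. It rose by 1.46 to day 23 (SE 0.10, edgeR adjusted p = 1.84e-13) and fell by 0.74 to day 38 (SE 0.09, adjusted p = 2.55e-07) and by 0.58 to day 45 (SE 0.09, adjusted p = 2.79e-05). *TGFBI*, another matrix protein, on chr5:136028988-136063818, was at 2.79 and 0.862, 13.2 and 8.35, 21.1 and 26.1, 53.8 and 48.8, and 64.2 and 47.4 CPM. It rose at each step but the last, by 2.56 to day 23 (SE 0.39, edgeR adjusted p = 1.40e-05; 3.64 without day 16 replicate 1 and 1.94 without day 16 replicate 2), 1.13 to day 31 (SE 0.31, adjusted p = 0.0444) and 1.12 to day 38 (SE 0.30, adjusted p = 0.00717). The log2 fold change from day 38 to 45 was 0.12 (SE 0.29, edgeR adjusted p = 0.874), and the libraries of these days overlapped. From day 16 to 45 it rose by 4.93 (SE 0.39, edgeR adjusted p = 2.08e-12), or by 5.98 without day 16 replicate 1 and 4.31 without day 16 replicate 2.

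The calls of *TGFBI* at the steps after day 23 were lost without single libraries. The call of day 31 against 23 was lost with filterByExpr (edgeR adjusted p = 0.0626), without day 23 replicate 2 (0.84, adjusted p = 0.479), without either day 31 library (1.27 and 0.96, adjusted p = 0.119 and 0.256) and without either day 38 library (adjusted p = 0.0576 and 0.0545). The call of day 38 against 31 was lost without day 31 replicate 1 (0.96, edgeR adjusted p = 0.119) or day 38 replicate 1 (1.05, adjusted p = 0.0738). *PMEPA1*, a feedback inhibitor induced by TGFβ, on chr20:57648392-57711536, was at 14.3 and 5.79, 12.2 and 10.1, 12.3 and 6.17, 23.7 and 21.8, and 8.86 and 17.7 CPM. It was highest at day 38 and rose by 1.29 from day 31 (SE 0.44, edgeR adjusted p = 0.0392). This call was lost under DESeq2 (1.27, adjusted p = 0.0655), without TMM factors (1.07, edgeR adjusted p = 0.0938), with upper-quartile factors (adjusted p = 0.0502) and without day 31 replicate 2 (0.88, adjusted p = 0.327) or either day 38 library (adjusted p = 0.185 and 0.12). From day 38 to 45 its log2 fold change was −0.77 (SE 0.43, edgeR adjusted p = 0.303). *SKIL*, a corepressor induced by TGFβ, was at 508 to 988 CPM, was called in no step and fell by 0.69 from day 16 to 45 (SE 0.13, edgeR adjusted p = 4.94e-05), or by 0.44 without day 16 replicate 2. At day 45 against day 38, the step at which SB431542 was added, *FN1* was thus the one of these 4 targets that was called.

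**Figure D5:**
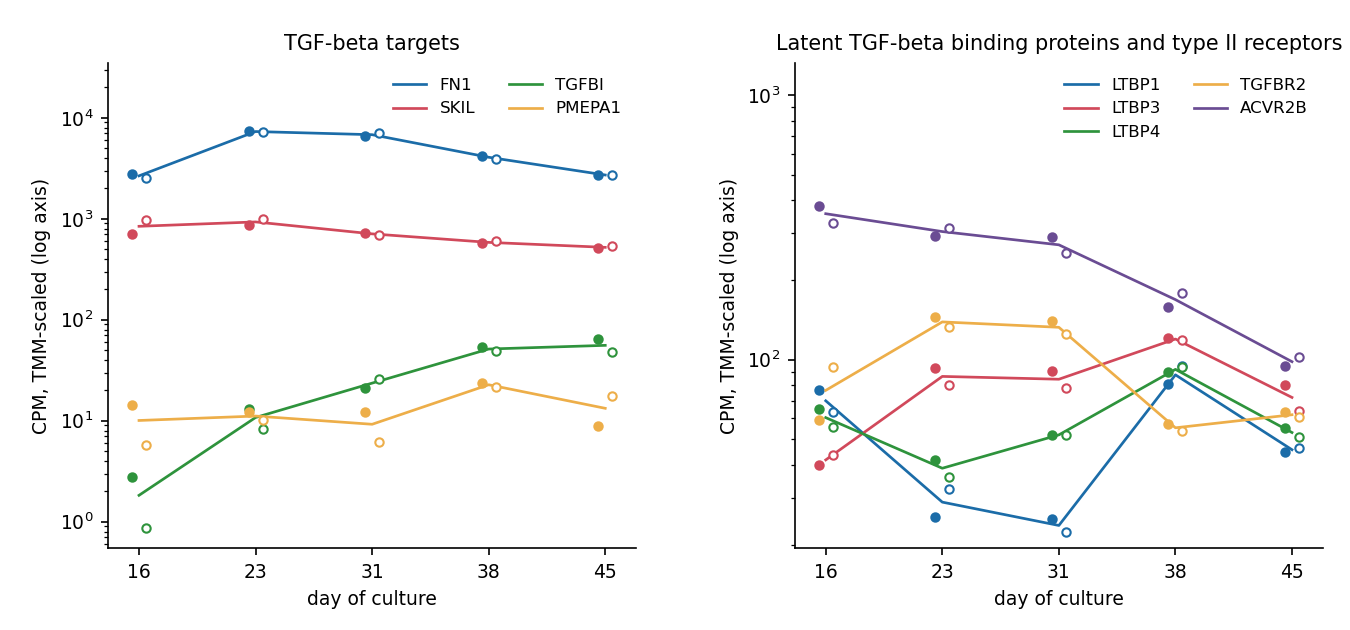
The left panel plots 4 TGFβ targets and the right *LTBP1*, *LTBP3*, *LTBP4*, *TGFBR2* and *ACVR2B*, as CPM on a log axis against the day, with filled points for replicate 1, open points for replicate 2 and lines through the means of 2. *FN1* peaks at 7304 CPM on day 23, *TGFBI* climbs to day 38, and the 3 *LTBP* genes peak at day 38.

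Other genes of the pathways were read from 4 further lists, in which 80 of 83 genes were tested. Of 22 other TGFβ targets, 15 were called from day 31 to 38, 14 higher and 1 lower, with a median log2 fold change of 1.40. The list holds *COL1A2*, a fibroblast marker here, and *ACTA2*, a cardiovascular marker, and without them 12 of 20 were called higher and 1 lower, with a median of 1.25. Without the collagen genes *COL1A1* and *COL3A1* as well, a choice made after the values were seen, 10 of 18 were called higher and 1 lower. From day 38 to 45, 7 were called, 2 higher and 5 lower, with a median of −0.11. Of 23 other genes of the TGFβ pathway, 5 were called from day 31 to 38 (3 higher) and 2 from day 38 to 45 (1 higher). Among 11 other BMP targets, 5 were called from day 31 to 38, 2 higher and 3 lower, and 3 from day 38 to 45, all lower. Among 24 tested genes of the BMP pathway, 4 were called from day 31 to 38 (3 higher) and 3 from day 38 to 45 (2 higher). Over all genes 15.0% and 11.2% were called at these steps. The shares were 21.7% and 8.7% in the other TGFβ pathway list and 16.7% and 12.5% in the BMP pathway list, near that background, against 68.2% and 31.8% of the other TGFβ targets and 45.5% and 27.3% of the other BMP targets.

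Over the 4 lists, 15 genes were called from day 38 to 45, 5 higher and 10 lower, and the 8 with the largest changes are named. *TNC* encodes tenascin C, a matrix protein, and was at 9.89 and 1.11 CPM on day 16, 16.2 and 14.9 on day 23, 20.3 and 43.2 on day 31, 173 and 173 on day 38 and 26.4 and 41.5 on day 45. It rose by 2.45 to day 38 (SE 0.35, edgeR adjusted p = 2.68e-06) and fell by 2.34 to day 45 (SE 0.35, adjusted p = 8.99e-06), a fall not called by DESeq2 (−2.30, adjusted p = 0.066). *VCAN* (versican), a matrix proteoglycan, was at 1006 and 1101, 723 and 731, 761 and 814, 1006 and 973, and 313 and 228 CPM, and fell by 1.87 to day 45 (SE 0.13, edgeR adjusted p = 7.81e-13). *INHA* encodes the inhibin α subunit, which with a β subunit makes inhibin, an antagonist of activin. It was at 8.12 and 4.31 CPM on day 16, 2.88 and 7.2 on day 23, 5.42 and 4.65 on day 31, 50.9 and 60.9 on day 38 and 9.44 and 7.32 on day 45, a fall of 2.74 at the last step (SE 0.40, edgeR adjusted p = 5.55e-06). These 3 genes were high at day 38 and lower without overlap at day 45.

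*SPP1* (osteopontin) and *RUNX2*, both linked to BMP signalling in bone, were highest on day 38. *SPP1* was at 60.3 and 68.7 CPM on day 38 and 13.8 and 14.7 on day 45 (−2.17, SE 0.36, edgeR adjusted p = 4.07e-05). *RUNX2* was at 65.1 and 72.3 CPM and then 23.4 and 24.2 (−1.53, SE 0.29, edgeR adjusted p = 0.00022). Of the genes that rose, *DCN*, which encodes decorin, a matrix proteoglycan that binds TGFβ and is also a fibroblast marker here, went from 52.1 and 49.5 to 145 and 115 CPM (1.36, SE 0.27, edgeR adjusted p = 0.00041), a rise not called by DESeq2 (1.40, adjusted p = 0.0741). The BMP ligand *BMP8A* went from 4.86 and 3.96 to 29.2 and 18.5 CPM (2.43, SE 0.53, edgeR adjusted p = 0.00161). *BMP10*, a heart BMP, had 3 and 3 counts on day 38 and 127 and 29 on day 45 (edgeR adjusted p = 0.00859). That call was lost without either day 38 library (adjusted p = 0.0912 and 0.09) or without day 45 replicate 1 (adjusted p = 0.458).

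The labelled cell type was checked by its markers. Summed over 7 thyroid markers, the levels were 1851 and 1455 CPM on day 16, 1613 and 1558 on day 31, 7348 and 6586 on day 38 and 9298 and 8810 on day 45, with *TG* (thyroglobulin) the most abundant at 10.7 to 7964 CPM. On days 38 and 45 most of the sum was *TG*, at 5547 and 4875 and then 7964 and 7525 CPM, while on day 16 *TG* was at 10.7 and 11.7 CPM and nearly all of the sum came from the other 6 markers. From day 38 to 45 *TG* was called higher and 3 of the 7, the transcription factors *NKX2-1*, *FOXE1* and *HHEX*, were called lower, with a median log2 fold change of −0.32 over the 7. Over all genes 4.85% were called higher and 6.35% lower at this step. None of the 7 was at 0 in every library. Over 4 epithelial markers the sums ran from 1305 to 2209 CPM.

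Markers of other cells were present. Some were called from day 31 to 38, but none of the 3 airway basal or 2 tested blood markers was. Over 7 fibroblast markers the sums were 360.4 and 440.3 CPM on day 31, 1338 and 1341 on day 38 and 1420.0 and 1195 on day 45, with *COL1A2* the most abundant at 154 to 1163 CPM. The rise of the sum on day 38 was that of *COL1A2*. The other 6 markers summed to 206 and 230.0 CPM on day 31, 188 and 178 on day 38 and 359 and 312 on day 45. From day 31 to 38, 3 of the 7 were called, 2 higher and 1 lower, where 15.0% of all genes were called. The point estimates were higher for 6 of the 7 and lower for 1, with a median log2 fold change of 0.38. From day 38 to 45, 3 were called, all higher, where 4.85% of all genes were called higher. Over 6 cardiovascular markers the sums were 32.1 and 28.9 CPM on day 31, 253 and 234 on day 38 and 188 and 212 on day 45. *MYH6* was the most abundant at 5.07 to 98.3 CPM. From day 31 to 38, 5 of the 6 were called higher, where 8.80% of all genes were. Over 4 goblet cell markers the sums were 4.61 and 6.05 CPM on day 31, 50 and 36.6 on day 38 and 105 and 56.6 on day 45, led by *MUC5B* at 0.554 to 96.5 CPM. Over 3 airway basal markers they were 8.09 and 22.0, 24.6 and 20, and 51.4 and 41.2 CPM, led by *KRT5*, which had 0 counts in 1 library each of days 16 and 23. Over 4 endothelial markers, led by *KDR*, the sums were 23.8 and 20.6 CPM on day 16, 32.7 and 41.4 on day 23, 53.9 and 50.2 on day 31, 18.8 and 24.2 on day 38 and 46.6 and 16.5 on day 45. They were highest on day 31. From day 31 to 38, *KDR* and *TEK* were called lower, where 6.23% of all genes were. The point estimates of *CDH5* and *PECAM1* were higher and not called, with a median of 0.64 over the 4. *PECAM1*, a defining endothelial marker, had 0 counts in both libraries of day 31. Blood markers summed to 2.44 to 37.0 CPM over all libraries (led by *CD68*, with *HBG1* at 0 in every library). Matrix genes such as *FN1*, *TGFBI*, *TNC*, *VCAN* and the *LTBP* genes, and the BMP ligands, are also made by fibroblasts and heart cells, as are many of the other TGFβ targets, and the part of such cells in the changes at days 38 and 45 was not tested. The cells had been sorted for NKX2-1GFP, and the purity of that sort was not tested here.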

How the data were processed

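RNA was sequenced from sorted NKX2-1GFP+ cells in 10 libraries. For each gene symbol the authors deposited raw counts of reads, in whole numbers. Per the labels and the study's methods, reads were trimmed with Trimmomatic, aligned with HISAT2 to GRCh38.p13 and counted with HTSeq. Whether counting used the strand is not given in the sources used here. All rows named a gene (0 reads without a name).

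Days and replicates come from the labels. The study states biological replicates from pooled wells of 1 line, so p-values measure the spread between such cultures. Replicates of a day differed by more than sampling noise (chi-square per degree of freedom 8.84 to 14.5), and each was counted once. The 53 members, the gene lists and the tests were chosen with earlier results of these data known.

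Genes with at least 5 counts in 2 libraries were tested, after the study's filter on values under 5, with edgeR 4.0.16 in R 4.3.3 (glmQLFit, glmQLFTest, TMM factors of 0.896 to 1.07), one mean per day over all libraries (5 residual degrees of freedom), Benjamini-Hochberg adjustment and a threshold of 0.05. Standard errors are the log2 fold change over the square root of F. The floor of 3 counts was 0.307 to 0.436 CPM and covers counting error only, as molecular identifiers are not stated. The fit was tested on simulated data. Values in every library are given for members called in a step with a daily mean of at least 20 CPM, for the type I receptors and for the *ID* genes. Other pathway genes are named where called from day 38 to 45 with at least 5 CPM, at most 8. Positions and exon lengths come from GENCODE 44 and promoters from RefSeq. Alternatives were DESeq2 1.42.0, upper-quartile factors, plain library sizes with no TMM factors, 2 other low-count filters, the 4 libraries compared alone, the replicate number as a block, a fold threshold and leaving out each library. Values of 2 genes are not reported here.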

Additional observations from a re-analysis of the deposited data

How the results depend on the processing

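No call on a member changed its direction under any alternative run. Of the calls on members, 10 of 15 from day 16 to 23, 1 of 5 from day 23 to 31, 15 of 26 from day 31 to 38, 9 of 18 from day 38 to 45 and 19 of 29 from day 16 to 45 held under all of them other than the fold threshold. With a log2 fold change of at least 1 required as well, the members called in the same order numbered 9, 2, 17, 3 and 18, and the genes called 1183, 282, 1691, 1202 and 3252. From day 23 to 31 the members called numbered 8 under DESeq2, 8 with no low-count filter, 3 with filterByExpr and 10 with only the 4 libraries compared, which called 734 genes. With single libraries left out, the members called numbered 10 to 17, 2 to 9, 18 to 31, 12 to 22 and 21 to 29 over the 5 comparisons, and the genes called 1401 to 2477, 214 to 679, 1818 to 3679, 1216 to 2866 and 4073 to 5249. The cause was not tested. Over the same alternatives, whose counts by arm were chosen after seeing the data, the median log2 fold change from day 31 to 38 ran from −0.03 to 0.33 in the TGFβ and activin arm and from −0.56 to −0.20 in the BMP arm.

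Libraries with the same replicate number did not deviate together over all genes tested (r of −0.032 to 0.02 over 10 pairs of days). This measure cannot show a pairing limited to some of the genes. With the replicate block the members called numbered 16, 8, 27, 20 and 29. The genes called with it numbered 2703, 678, 3472, 2691 and 5460, in place of 2296, 473, 3160, 2353 and 5175. With 2 libraries a day, 1 library often decides a call, and genes near the floor of 3 counts cannot be compared.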
